A study of Mus musculus with 4 samples.

Results

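Magi1, Magi2 and Magi3 encode the MAGI proteins, scaffolds of the inner face of the plasma membrane, and this account describes the accessible chromatin assigned to these 3 genes in mouse brain parenchymal macrophages. A merged ATAC-seq peak belonged to a gene when its centre lay inside the gene interval, or when that gene was the nearest protein-coding gene and its interval lay at most 100000 bp away. By this rule 51 of 74695 merged peaks (0.0683%) were assigned to the family, with 26 at Magi1, 15 at Magi2 and 10 at Magi3. The family was chosen by the number of Magi1 peaks in the authors' list of YSM differential peaks, so counts in the lists are a description and were not tested.

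The study profiled FACS-sorted macrophages with Omni-ATAC, an assay in which the Tn5 transposase cuts open chromatin and tags the cut ends for sequencing. There were 4 libraries in 2 groups of 2, labelled MDM1, MDM2, YSM1 and YSM2. Both groups carried the genotype Ms4a3-Ai9 and the treatment DR-3x. Ms4a3 is expressed in progenitors of granulocytes and monocytes, and the Ai9 reporter allele turns cells red after Cre recombination. The series title names monocyte-derived macrophages, which was taken as the meaning of MDM, whereas YSM and DR-3x are not spelled out in the labels. Whether 2 libraries of a group stand for separate animals is not said in the labels. The authors' differential peaks formed a YSM list of 1104 intervals and an MDM list of 108, each taken as more accessible in the group it is named for. These lists and the merged peaks gave positions without a value per library, so no replicate error, depth per library or fold change could be given. All 10 of the microglia and macrophage markers examined (among them Cx3cr1, Csf1r, Spi1, P2ry12 and Tmem119) had merged peaks, from 2 to 15 each. Peaks were also assigned to 4 of 5 neuron, 5 of 5 astrocyte, 3 of 5 oligodendrocyte and 4 of 5 endothelial markers, and Syt1, Sox10 and Tek were among those without a peak. Of all these marker genes, Mbp and Mog held 1 YSM-listed peak each, among 20 and 3 merged peaks. The marker sets, in the order given, had 55, 16, 19, 25 and 34 merged peaks. In the whole series, 1.48% of merged peaks were YSM-listed. The part of these marker genes in the results below was not tested.

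MAGI proteins belong to the membrane-associated guanylate kinase family, known as MAGUK. They combine a guanylate kinase-like domain, WW domains and several PDZ domains, and through these they gather receptors, junction proteins and signalling enzymes at cell contacts. Magi1 and Magi3 are widely expressed in epithelia and endothelia, where their products sit at tight and adherens junctions. Magi2, also called S-SCAM, is best known as a scaffold of synapses and podocytes.

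The start regions of the 3 genes differed in their accessibility, and the sequences there are shown because the results below return to them. They come from RefSeq (GRCm38.p6, the assembly of mm10), whose table holds windows from 250 bases before to 50 after a gene start. Capitals mark letters that match a searched motif on either strand. The first stretch (chr3:104220414-104220656, minus strand) is the 243 bases upstream of the Magi3 start that lie inside a merged peak in neither list. The second (chr5:19226796-19227045, plus strand) is the 250 bases upstream of the first of 2 Magi2 starts in that table, 7659 bp inside the gene interval, where no peak was called. The last (chr6:94283911-94283970, plus strand) lies inside a YSM-listed peak at the Magi1 5′ end, and was read from the window of Gm31661, a long non-coding RNA gene that starts there in the opposite direction.
Magi3 start: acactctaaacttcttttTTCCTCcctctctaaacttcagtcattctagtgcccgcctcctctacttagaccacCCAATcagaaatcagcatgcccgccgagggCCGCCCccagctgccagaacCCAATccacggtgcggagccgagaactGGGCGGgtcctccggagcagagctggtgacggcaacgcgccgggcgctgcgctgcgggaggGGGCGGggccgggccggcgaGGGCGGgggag
Magi2 start: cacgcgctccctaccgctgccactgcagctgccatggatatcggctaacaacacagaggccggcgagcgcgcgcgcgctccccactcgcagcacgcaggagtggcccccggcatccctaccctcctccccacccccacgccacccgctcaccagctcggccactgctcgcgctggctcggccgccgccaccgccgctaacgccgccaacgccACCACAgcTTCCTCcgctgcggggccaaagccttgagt
Magi1 and Gm31661 start: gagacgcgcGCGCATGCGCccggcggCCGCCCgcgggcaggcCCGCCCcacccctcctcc

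Magi1 carried all the listed peaks of the family. The gene (NCBI gene 14924) spans 608.5 kb on the minus strand of chromosome 6, from 93675453 to 94283929 in mm10. Of its 26 merged peaks, 12 were in the YSM list (46.2%), 0 were in the MDM list and 14 were in neither. Over all merged peaks, 1.48% were YSM-listed and 0.145% MDM-listed. No other protein-coding gene had more YSM-listed peaks, and the 12 at Magi1 made up 1.09% of the YSM list. The 0 MDM-listed peaks among 26 allow a share of up to 11.5%, which is 3 peaks over the number assigned. This limit covers counting error only and takes peaks as independent, which neighbouring peaks need not be. No interval was in both lists, so the 12 YSM-listed peaks could not have been MDM-listed, and the limit is a rough one.

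YSM-listed peaks crowded into the 5′ part of Magi1. When the gene was divided into 4 equal parts of 152.1 kb from its 5′ end, the first part held 10 merged peaks of which 9 were YSM-listed. The second held 5 peaks and no YSM-listed one. The third held 3, with 1 YSM-listed, and the last held 7, with 1 YSM-listed. The remaining YSM-listed peak lay just outside the gene, its centre 143 bp upstream of the 5′ end.

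The most upstream pair of peaks lay at the 5′ end of Magi1 itself. The first, at 94283620 to 94283971, was 352 bp wide, combined 4 library-level peaks (subpeaks) and ran across the end of the gene interval at 94283929. The second followed at 94283972 to 94284172 with 0 bp between them, and it rested on a single subpeak, so it had been called in 1 library. Both were YSM-listed. The first covered the whole 300-base RefSeq window of the Gm31661 start (94283671 to 94283970), so the peak lay over annotated gene ends on both strands. Among all 32851 such windows, 37.1% overlapped a merged peak and 0.289% a YSM-listed one. For the 21263 windows of protein-coding genes alone, the shares were 49.5% and 0.372%.

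Further in, the YSM-listed peaks followed one another with a single interruption. Going into the gene from its 5′ end, they were centred at 9.96, 14.6, 29.8, 61.6, 62.0, 88.5, 121 and 124 kb. The peak at 9.96 kb (94273867 to 94274077), the peak at 14.6 kb (94269244 to 94269444) and the peak at 29.8 kb (94254017 to 94254231) combined 2 subpeaks each and were 201 to 215 bp wide. The pair at 61.6 and 62.0 kb lay 43 bp apart, at 94222245 to 94222493 with 2 subpeaks and at 94221722 to 94222201 with 4. The latter, 480 bp wide, was the widest peak of the gene. At 88.5 kb, the peak at 94195262 to 94195628 combined 3 subpeaks. The outermost ones of this group were at 94163183 to 94163507, with 2 subpeaks, and at 94159464 to 94159671, with 4. The one peak between them that was in neither list, at 94187138 to 94187338 and 96.7 kb from the 5′ end, was a single-subpeak call.

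Counted along the chromosome, 10 of the 11 peaks in this 125 kb stretch were YSM-listed, against 2 of the 15 in the rest of the gene. The bounds of that stretch were set after the positions had been seen. Within it, 8 consecutive merged peaks were all YSM-listed, over 88.9 kb. On the assembled chromosomes YSM-listed peaks formed 852 such uninterrupted runs, 690 of which were a lone peak. The run at Magi1 was the longest, and 1 run, this one, reached 8. Because Magi1 was chosen by its YSM-listed peaks, this rank is a description only. The 8 include the 2 peaks with 0 bp between them and the pair 43 bp apart. Runs were not counted again with such close peaks joined.

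**Figure D1:**
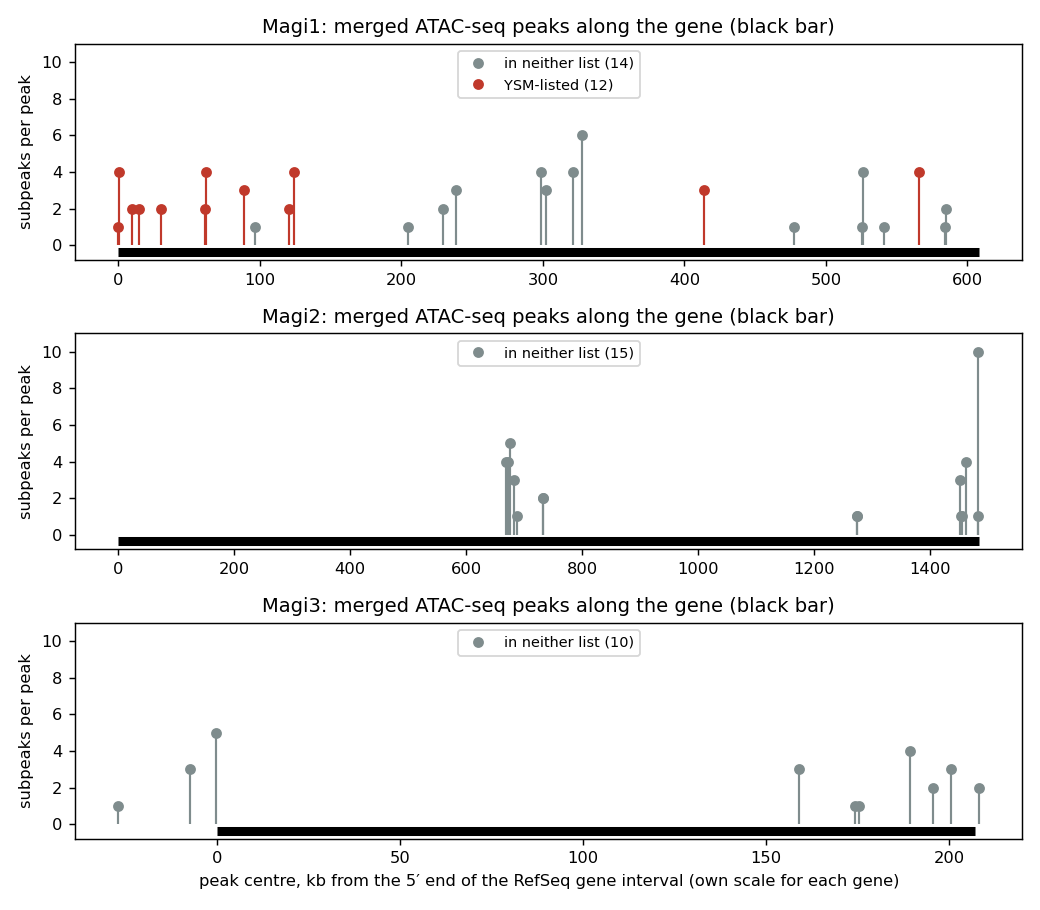
Merged peaks of Magi1, Magi2 and Magi3 by the distance of their centre from the 5′ end of the gene (x axis, kb, on a scale of its own for each gene) and by the number of subpeaks they combine (y axis); the black bar is the gene interval, red points are YSM-listed peaks and grey points peaks in neither list. The 12 red points are all at Magi1, 10 of them in the 125 kb stretch at its 5′ end, while Magi2 shows no peak before 669.3 kb and Magi3 none between its start and 159.0 kb.

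Magi1 also had a middle section without any YSM-listed peak. Between the YSM-listed peak at 94159464 and the next one down the chromosome, 289 kb lay free of listed intervals although 7 merged peaks fell there. These 7 included the peak with the most subpeaks of the gene, 6, at 93956480 to 93956741, and a neighbour at 93962366 to 93962735 with 4. The 2 remaining YSM-listed peaks stood apart from each other and from the 5′ group. One was at 93870207 to 93870529, 414 kb from the 5′ end, with 3 subpeaks. The other was at 93718215 to 93718566, 566 kb from the 5′ end, with 4 subpeaks, and had unlisted peaks on either side. The last peaks before the 3′ end, at 93699064 to 93699316 and 93699486 to 93699686, were in neither list.

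The internal starts of Magi1 were not marked by a peak. RefSeq's table gives 2 start windows for the gene, at 93912914 to 93913213 and at 93913641 to 93913940, both deep inside the interval. The nearest merged peaks lay 42385 bp from the former and 42540 bp from the latter. The 5′ end at 94283929 and these internal starts thus differed in whether an accessible interval was called at them.

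Several non-coding genes overlap the accessible part of Magi1. The long non-coding RNA gene 4930511A08Rik (94132923 to 94237442) contained the centres of 6 Magi1 peaks, 5 of them YSM-listed. Gm52867 (94187965 to 94227854), a shorter gene of the same kind within it, contained 3, all YSM-listed. The peaks inside these genes are the Magi1 peaks already described, and assignment by position does not tell which of the overlapping genes a peak is linked to. The 4930511A08Rik start window itself lay 14900 bp from the nearest merged peak.

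The YSM-listed peaks of Magi1 were not confined to intervals with few calls. They combined 1 to 4 subpeaks, with a median of 2.5, and the 14 peaks in neither list combined 1 to 6, with a median of 2.0. A peak with at most 3 subpeaks lacked a call in at least 1 of the 4 libraries. This held for 8 of the 12 YSM-listed Magi1 peaks (66.7%) and 10 of the 14 others (71.4%). In the whole series it held for 42.3% of merged peaks, 71.6% of YSM-listed peaks and 41.9% of those in neither list. The 14 unlisted peaks included 6 single-subpeak calls, while the YSM-listed ones included 1. Over the whole series, such calls made up 20.5% of peaks in neither list and 6.97% of YSM-listed ones. Widths ran from 201 to 480 bp with a median of 286 bp among YSM-listed peaks, and from 201 to 370 bp with a median of 238 bp among the others. Both subpeak number and width derive from the calls that also fed the differential lists, so they are no independent property.

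For peaks of 1 to 4 subpeaks, the YSM-listed share at Magi1 was above that of all merged peaks. Magi1 was chosen by its number of YSM-listed peaks, and each class held few of its peaks. Higher shares therefore follow from that choice wherever a YSM-listed peak fell, and the counts only describe how these peaks were spread. Of Magi1 peaks with 2 subpeaks, 5 of 7 (71.4%) were YSM-listed, against 5.94% of all 8692 such peaks. With 3 subpeaks it was 2 of 4 (50.0%) against 2.55%, and with 4 subpeaks 4 of 7 (57.1%) against 0.718%. Among single-subpeak peaks 1 of 7 (14.3%) was YSM-listed against 0.509%. The 1 Magi1 peak with 5 or more subpeaks was not YSM-listed, where the share over all merged peaks was 0.758%.

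**Figure D2:**
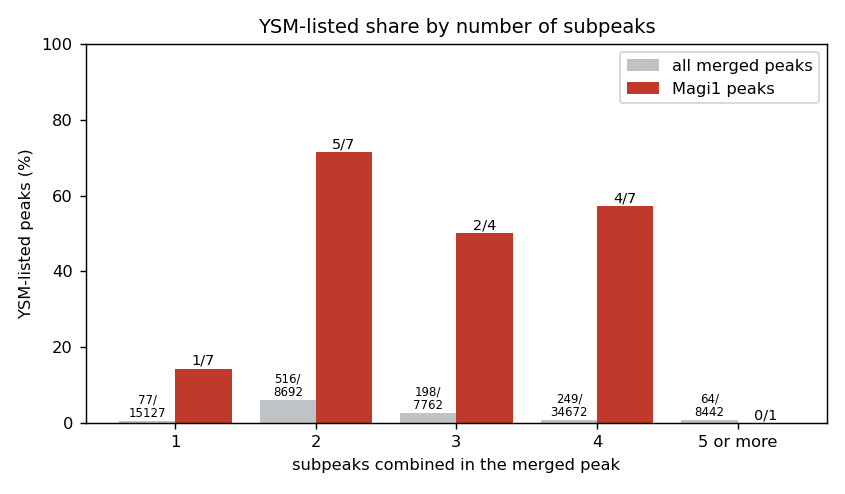
Percentage of merged peaks in the YSM list (y axis) by the number of subpeaks combined in the peak (x axis), for all merged peaks (grey) and for the 26 Magi1 peaks (red), with the counts behind each bar written above it. The red bar is the higher one for 1 to 4 subpeaks and is absent for 5 or more, where Magi1 had 1 peak and 0 YSM-listed. Magi1 was chosen by its number of YSM-listed peaks, so the difference in height is no test.

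Magi2 had no listed peak. Of the 1822 genes with at least 10 merged peaks, 1580 likewise had no YSM-listed one, and 1.48% of all merged peaks were YSM-listed. The gene (NCBI gene 50791) spans 1485.4 kb on the plus strand of chromosome 5, from 19219387 to 20704792. All 15 of its merged peaks lay inside it, and 0 were YSM-listed and 0 MDM-listed. By the same rough limit on counting error, a count of 0 in 15 allows a share of up to 20.0%. The nearest listed peak was a YSM-listed one 775102 bp beyond the gene, at 21479780 to 21480009.

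Peaks of Magi2 fell into 3 places and left the rest of the gene empty. Nothing was called over the first 669.3 kb, which includes the first start window, shown above, 661480 bp from its nearest peak. A first group of 7 peaks stood between 669 and 733 kb from the 5′ end, close to the second start that the RefSeq table places at 19907518. Of these, the peak at 19895823 to 19896223 had 5 subpeaks, and those at 19888575 to 19888816 and 19891745 to 19892024 had 4 each. The window of that start did not overlap a peak, and a single-subpeak call at 19908015 to 19908215 lay 448 bp from it. After a stretch of 541373 bp without a peak came 2 single-subpeak calls 58 bp apart, at 20494012 and 20494271. The remaining 6 peaks lay near the 3′ end, from 1453 to 1483 kb.

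The 3′ end of Magi2 carried the most heavily called interval of the family. At 20701643 to 20702373, 1482.621 kb from the 5′ end, it was 731 bp wide and combined 10 subpeaks. Only 0.135% of all merged peaks were as wide or wider, and 0.1% combined as many subpeaks or more. It was in neither list. With 4 libraries, 10 subpeaks mean that at least 1 library gave several peaks there.

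Magi3, the shortest member, was accessible at its start and near its 3′ end. The gene (NCBI gene 99470) spans 207.1 kb on the minus strand of chromosome 3, from 104013259 to 104220406. Of its 10 merged peaks, 6 lay inside the gene, and 0 were YSM-listed and 0 MDM-listed. By the same rough limit on counting error, this allows a share of up to 30.0%. Over all merged peaks the shares were 1.48% and 0.145%. The peak at the start, 104220414 to 104220755, combined 5 subpeaks, the most of the gene, and overlapped the RefSeq start window by 243 bp. Upstream of it lay a peak at 104227522 to 104227915 with 3 subpeaks and a single-subpeak call at 104247261 to 104247461. Between the start and the next peak downstream, 158918 bp were free of calls.

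The peaks inside Magi3 were all far from its start. They were centred between 159 and 201 kb from the 5′ end and combined 1 to 4 subpeaks, with 4 at 104030870 to 104031130. A further peak with 2 subpeaks, at 104012013 to 104012215, lay 1145 bp beyond the 3′ end. The nearest listed peak was YSM-listed and belonged to Lrig2, at 104460751 to 104460969, 240454 bp from Magi3.

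The members thus differed in how densely they were occupied. Inside the gene intervals there were 4.11 merged peaks per 100 kb at Magi1, 2.9 at Magi3 and 1.01 at Magi2. Of the 25 peaks inside Magi1, 11 were YSM-listed, and the family was chosen by such peaks. The place of Magi1 among these densities is therefore a description only. Across the 990 protein-coding genes of at least 200 kb, the median was 0.964 per 100 kb with the central 50% of genes between 0 and 3.59, and 302 of them had no peak inside. Of the 8096 merged peaks inside these long genes, 203 were YSM-listed (2.51%), of which Magi1 held 11. The 5 genes closest to Magi1 in length had fewer listed peaks, a difference that follows from the choice of Magi1 and was not tested. Kalrn, a guanine nucleotide exchange factor gene, had 18 merged peaks and 1 YSM-listed, and Mast4, a kinase gene, had 13 and 1. Egfem1 had 9 merged peaks, the calcium channel gene Cacna1c 3 and the nuclear receptor gene Esrrg 2, none of them listed.

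The start windows ranged widely in base composition. The Magi3 window was 66.3% G and C with 26 CpG dinucleotides, and it overlapped a peak. The Magi2 window at 19226796 to 19227095 was 69.3% G and C with 29 CpG, and the nearest peak was far away. The Gm31661 window at the Magi1 5′ end had the highest values, 73.3% and 43 CpG. The windows at the internal Magi1 starts had 58.7% G and C with 7 and 8 CpG, and that of the second Magi2 start had 43.0% with 4 CpG. Those of 4930511A08Rik and of the second Gm31661 start had 42.7% with 6 and 44.0% with 2. None of these 5 windows overlapped a peak.

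Motif letters were searched on both strands of the 300-base windows, first in the 3 from which the printed stretches come. GGGCGG, the core letters bound by SP and KLF factors, occurred 4 times in the Magi3 window, 3 times in the Gm31661 window at the Magi1 5′ end and 0 times in the Magi2 start window shown, and 35.7% of all 32851 windows held it. CCAAT occurred 2 times at Magi3 (37.4% of windows). GAGGAA, the core of PU.1 sites, a factor that macrophages depend on, was found once at Magi3 and once at Magi2 (28.3%), in both cases as TTCCTC. The RUNX letters TGTGGT were found once at Magi2 as ACCACA (16.8%). GAGGAA and TGTGGT also occurred once each at an internal Magi1 start, in the window 93912914 to 93913213. A palindrome matching the NRF1 motif began 1 base before the Gm31661 start and ended at the Magi1 5′ end, 94283929. It is the first run of capitals in the printed stretch, and 4.6% of windows held that motif. CCGGAAGT (ETS, 3.89%), TGANTCA (AP-1, 7.81%), TGACGTCA (CRE, 1.79%), TTGCNNAA (C/EBP, 10.8%), GGAATG (TEAD, 14.7%) and CACCTG (an E-box, 20.2%), as well as the IRF (3.44%) and MEF2 (3.69%) motifs, were not in these 3 windows. Of the 3 GGGCGG matches at the Magi1 5′ end, 2 are in the printed stretch, and no match overlapped another motif. Of the remaining windows of the members, the other internal Magi1 start held the SP and KLF letters 2 times and the CCAAT and E-box letters once each, and the second Magi2 start held the C/EBP, TEAD, E-box, and SP and KLF letters once each. A match of letters is a description and does not show binding.

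Protein-coding genes are sparse around Magi1. Adamts9, on the side of the 3′ end, lay 731002 bp away and had no merged peak assigned, and no merged peak was found in the 1 Mb below Magi1. The 1 Mb on the side of the 5′ end held 17 merged peaks besides those of Magi1, of which 2 were YSM-listed and 1 MDM-listed. Among all merged peaks these shares were 1.48% and 0.145%, and counts this small were not tested. The next gene on that side was Slc25a26, a mitochondrial carrier gene, 216365 bp away, with 6 merged peaks. Its 1 YSM-listed peak, at 94536356 to 94536597 with 2 subpeaks, was the nearest listed interval outside Magi1, 252547 bp from it. The next was MDM-listed and lay at the edge of Lrig1, at 94604520 to 94604915 with 5 subpeaks, 320788 bp from Magi1. Lrig1 encodes a leucine-rich repeat membrane protein that restrains growth factor receptors.

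The other members lay in different surroundings. Below Magi2, the inhibitory G-protein gene Gnai1 was 858973 bp away with no merged peak assigned, and no merged peak fell in the 1 Mb below Magi2 either. Beyond the 3′ end of Magi2, Phtf2 was 53871 bp away and had 9 merged peaks, and of 75 merged peaks in that 1 Mb flank 1 was YSM-listed. Magi3 lay in a denser region, with Phtf1 5768 bp beyond its 3′ end (2 merged peaks) and Lrig2 233573 bp beyond its 5′ end (15 merged peaks, 1 YSM-listed). In the 1 Mb flanks of Magi3, 3 of 80 merged peaks on the lower side and 2 of 80 on the upper side were YSM-listed. The share over all merged peaks was 1.48%.

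The gene whose YSM-listed share was closest to that of Magi1 lay on the same chromosome. Among the 1822 genes with at least 10 merged peaks, Suclg2, which encodes a subunit of succinyl-CoA ligase, had 5 of 11 peaks in the YSM list (45.5%, a difference of 0.699 percentage points). The lower end of its interval lies 1.19 Mb beyond the Magi1 5′ end. From the lower end of Magi1 to the upper end of Suclg2, 19 of 57 merged peaks (33.3%) were YSM-listed and 1 was MDM-listed. Of these 19, 12 were assigned to Magi1 and 5 to Suclg2. Both genes were picked by their YSM-listed peaks, so a high share over this span follows from that choice and was not tested. On chromosome 6 as a whole the YSM-listed share was 2.02%, or 1.73% without the Magi1 peaks. The next in likeness were Sall3 with 5 of 12 (41.7%), Klhl3 with 6 of 15 (40.0%), Rxrg with 5 of 13 (38.5%) and Ptprm with 10 of 18 (55.6%). Of the genes with at least 10 merged peaks, 5 had a larger YSM-listed share than Magi1, and 1580 had no YSM-listed peak.

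**Figure D3:**
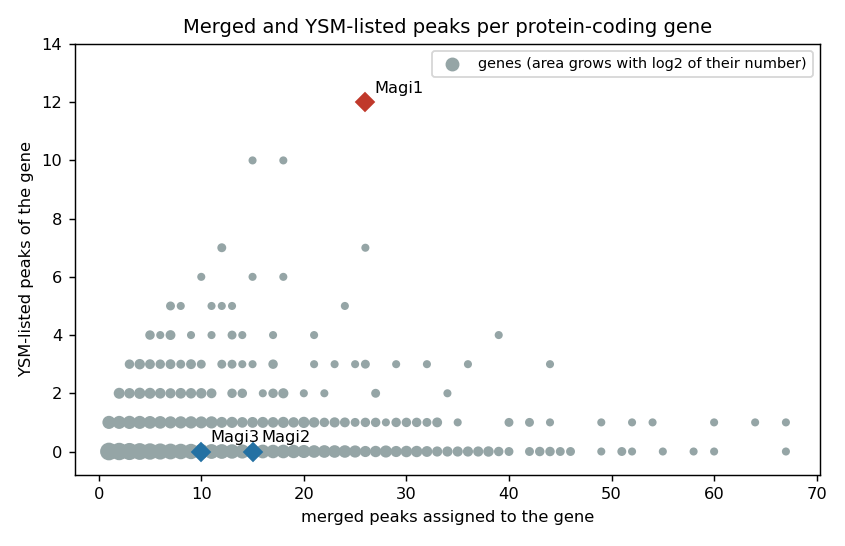
Merged peaks (x axis) and YSM-listed peaks (y axis) assigned to each of 15389 protein-coding genes with at least 1 merged peak; grey points are genes, larger where more genes share a position, and diamonds mark the MAGI genes. Magi1, at 26 merged and 12 YSM-listed peaks, is the highest point, while Magi2 and Magi3 lie on the line of 0.

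Other scaffold genes of the MAGUK family were near the share over all merged peaks, 1.48%. Of 19 such genes, 18 had merged peaks, 155 in all, and 3 of these were YSM-listed (1.94%) and 0 MDM-listed. All 3 were inside Dlg1, the discs large scaffold gene, which had 14 merged peaks. They lay at 31837394 to 31837796, 31838155 to 31838358 and 31866809 to 31867068 on chromosome 16, with 4, 2 and 2 subpeaks. The tight junction scaffold genes Tjp1 and Tjp3 had 23 and 1 merged peaks and Cask had 29, none of them listed. Mpp4 had no merged peak.

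Genes for proteins known to bind MAGI proteins were likewise near that share. Of 26 genes, 22 had merged peaks, 217 in all, with 3 YSM-listed (1.38%) and 0 MDM-listed. Tgfa, which encodes the growth factor TGF-alpha, held 2 of them, at 86225797 to 86226044 and 86259288 to 86259499 on chromosome 6, among 9 merged peaks. Rapgef2, a Rap1 exchange factor gene, held 1, at 79070360 to 79070678 on chromosome 3, among 40. The beta-catenin gene Ctnnb1 had 8 merged peaks, with none listed. Adgrb1, Nlgn1, Nlgn2 and Nphs1 had no merged peak.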

How the data were processed

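Omni-ATAC libraries of sorted mouse brain macrophages (2 MDM, 2 YSM) were used through 3 deposited interval files. The submitters' processing notes name HOMER, Picard, Bowtie2 2.2.5 and Trimmomatic 0.39 with the mm10 build. The authors merged the peaks called in each library with HOMER mergePeaks, per the file headers. For peak calling, the Tn5 offset and the differential lists, settings were not given in the sources used here. Deposited score values were 1 in nearly every row and were not used.

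Files were read with Python 3.11.15 and pandas 2.3.3. Subpeak numbers came from the interval names. As a check, all 15127 intervals with 1 subpeak were 201 bp wide. Every listed interval matched a merged one exactly. Genes and start windows came from RefSeq (GRCm38.p6), and strand from the start windows. Exons and introns were not told apart. A peak inside several genes counted for each. Peak assignment was tested on simulated intervals. Members, lists and comparisons were chosen with earlier results of these data known. Genes were named as neighbours of a member, as the 5 closest to Magi1 in length or in YSM-listed share, or as list genes with a listed peak, and other genes of the lists were named after their values were seen. No test was run: peaks are not replicates, and depth per library was not analysed here.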

Additional observations from a re-analysis of the deposited data

How the results depend on the processing

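For the 5 peak counts and shares above 0, 32 of 40 values under 8 alternatives stayed within 1.5 times the first count or inside its 95% exact binomial interval, and 8 counts moved. That interval takes peaks as independent and is wide for 26 peaks, so a share inside it is a weak check. Counting any overlap with a list as listed was among the alternatives. It changed no value, as listed intervals matched merged ones exactly. The 7 results at 0 stayed at 0, and alternatives that only remove peaks could not have changed them. With at least 4 subpeaks required, Magi1 kept 8 merged peaks with 4 YSM-listed ones in place of 12, Magi2 5 and Magi3 2. The YSM-listed share at Magi1 ran from 44.0% (centre inside the gene, or genes of every kind) to 60.0% (nearest gene end, 9 of 15 peaks), and it was 45.5% with peaks within 1000 bp joined (10 of 22). By the nearest gene end Magi2 had 6 merged peaks, with at least 2 subpeaks 9, and Magi3 had 6 inside the gene. Magi2 and Magi3 had 0 YSM-listed peaks under each alternative. No paired analysis was possible because the files used here gave no value per library, and for the same reason no replicate could be left out.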

Other observations

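The genes beside the members belong to shared families. Phtf1 and Rsbn1 lie next to Magi3 on chromosome 3, followed by the phosphatase gene Ptpn22, and Phtf2, Rsbn1l and Ptpn12 lie in the same order beyond the 3′ end of Magi2 on chromosome 5. Lrig2 lies beyond the 5′ end of Magi3, and Lrig1 beyond that of Magi1 on chromosome 6. Phtf1, Rsbn1 and Ptpn22 had 2, 5 and 7 merged peaks and Phtf2, Rsbn1l and Ptpn12 had 9, 10 and 6, with 0 listed in either set. Lrig2 had 15 merged peaks, of which 1 was YSM-listed, and Lrig1 had 3, of which 1 was MDM-listed. Among all merged peaks, 1.48% were YSM-listed and 0.145% MDM-listed. These genes were chosen after their positions were seen.

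Suclg2 resembled Magi1 in its share of YSM-listed peaks but not in their placement. Of its 5 YSM-listed peaks, 2 were inside the gene, at 95484384 to 95484604 and 95667404 to 95667647, with 3 subpeaks each. The other 3 lay 9155, 16310 and 20719 bp below its lower end. The peak at its upper end, 95718440 to 95718840 with 6 subpeaks, was in neither list. Between the 26 peaks assigned to Magi1 and the Suclg2 interval, 5 of 25 merged peaks (20.0%) were YSM-listed, against 2.02% on chromosome 6. The count includes the 3 just below Suclg2, a gene picked by its YSM-listed share, and was not tested.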
